A study of Homo sapiens with 12 samples.

Results

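The HSP70, HSP90 and co-chaperone genes described here are 10 gene symbols chosen by name from 56634 gene rows of an RNA-seq count table of HEK293 cells, a human embryonic kidney line. They are HSPA1A, HSPA1B, HSPA8, HSPH1, HSP90AA1, HSP90AB1, DNAJB1, HSPD1, HSPE1 and BAG3. HSPA1A and HSPA1B were summed because their transcripts are nearly identical, which leaves 9 rows, and all 9 were among the 14821 rows that passed the filter on low counts. The study asked how Senexin B, a small molecule that inhibits CDK8 and CDK19, kinases of the Mediator complex, changes transcription with and without the inflammatory cytokine TNF-α. There were 12 libraries, 3 in each of 4 groups. TNF_SnxB cells received 1 µM Senexin B for 1 h and then 10 ng/mL TNF-α for 2 h. TNF cells received 0.1% DMSO, the vehicle, in the first step and the same TNF-α in the second. SnxB cells had Senexin B and no TNF-α, and DMSO cells had the vehicle alone, both over 3 h. No DMSO percentage is recorded for the SnxB and TNF_SnxB groups. All groups are the same unmodified line from 1 supplier. The labels call the samples biological replicates without saying whether they came from separate passages or days. The p-values therefore measure the spread between these samples. That spread was small in most groups. Between replicates the chi-square of counts per degree of freedom, near 1 for counting error alone, was 1.105 to 1.126 in SnxB and 1.065 to 1.168 in TNF libraries. It was 1.324 to 1.593 in DMSO and 1.211 to 5.785 in TNF_SnxB libraries.

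Libraries held 8705277 to 50943310 counts, with TNF replicate 2 the deepest. Levels are given as CPM, counts scaled to the TMM-adjusted library size. The floor of 3 counts, which covers counting error only, corresponds to 0.0589 to 0.345 CPM. VIM, KRT8, KRT18 and NEFL, which HEK293 cells are known to express, were present in all libraries at 713 to 833 CPM summed with NEFM and PAX2, which stayed at 0.329 to 1.33 CPM. Leukocyte and endothelial markers summed to at most 1.05 CPM, with CD3E and CDH5 at 0 in all 12 libraries. COL1A1, a fibroblast marker, had 13.6 to 17.2 CPM while DCN was at 0. TNF_SnxB replicates 2 and 3 stood apart from TNF_SnxB replicate 1: tested genes in the lowest GC decile deviated by a median log2 of 0.2 and 0.18 from their mean over the libraries, and genes in the highest GC decile by -0.22 in both. In TNF_SnxB replicate 1 these medians were -0.03 and 0.02. Results that involve TNF_SnxB are therefore also given corrected for GC content and length (the GC and length correction below), and with TNF_SnxB replicate 1 as the only library of its group, where that 1 sample is assumed to vary like the samples of the other groups.

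HSP70 proteins bind unfolded stretches of client proteins and release them through a cycle of ATP hydrolysis. J proteins such as DNAJB1 start that cycle by stimulating the ATPase, and nucleotide exchange factors such as HSPH1 and BAG3 end it by releasing ADP. HSP90 takes over partly folded clients, among them kinases and steroid receptors, while HSPD1 and HSPE1 form the folding chamber of mitochondria. Transcription of the inducible members is driven by the heat shock factor HSF1, which binds arrays of the motif nGAAn in alternating orientation. CDK8 and CDK19 are kinases of the Mediator complex, through which transcription factors act on RNA polymerase II.

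The promoters of HSPA1A, HSPA1B and HSPA8 are shown because these genes held the largest differences among the members in both Senexin B comparisons and are the members whose RefSeq promoter window contained paired GAA units. The stretches below are from RefSeq, build GRCh38.p14, 5′ to 3′ on the gene's strand. HSPA1A is at chr6:31815425-31815530 on the plus strand, from -118 to -13 relative to the start site. HSPA1B is at chr6:31827621-31827726 on the plus strand, from -117 to -12. HSPA8 is at chr11:123062167-123062378 on the minus strand, from -242 to -31. Capitals mark matches to GAANNTTC, TTCNNGAA and TATAAA.
HSPA1A: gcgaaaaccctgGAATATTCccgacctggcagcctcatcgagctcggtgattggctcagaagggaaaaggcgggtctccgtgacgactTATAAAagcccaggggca
HSPA1B: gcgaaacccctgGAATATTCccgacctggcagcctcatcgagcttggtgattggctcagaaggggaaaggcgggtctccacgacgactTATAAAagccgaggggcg
HSPA8: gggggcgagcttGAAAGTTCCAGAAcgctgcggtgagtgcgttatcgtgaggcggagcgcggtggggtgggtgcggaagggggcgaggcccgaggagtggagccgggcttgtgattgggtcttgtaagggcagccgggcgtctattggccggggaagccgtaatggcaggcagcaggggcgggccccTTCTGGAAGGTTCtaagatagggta

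All 10 symbols matched a RefSeq promoter window of 250 bases before the start site and 50 after it. GAANNTTC, which is its own reverse complement, was in 3 of the 10 promoters and in 6.87% of 27305 promoters of the same length. It lay at -106 to -99 in HSPA1A and at -105 to -98 in HSPA1B, and in HSPA8 it lay at -230 to -223 and again at -50 to -43. TTCNNGAA, also its own reverse complement, was in 1 of the 10 promoters, that of HSPA8, and in 7.84% of all promoters. Both its matches in HSPA8 overlapped those of GAANNTTC. At these places, -230 to -218 and -55 to -43, 3 alternating GAA and TTC units followed each other with 2 bases between them. Such an array of 3 units, starting with either unit, was in 0.487% of all promoters. TATAAA, the core of the TATA box, was searched on both strands, occurred in HSPA1A and HSPA1B and was in 12.0% of all promoters. CCAAT, searched on both strands and left in lower case, was in 5 members and in 35.7% of all promoters. These are matches of letters in a single window per gene and measure no binding. HSP90AA1 has 10 annotated transcripts and DNAJB1 has 11, and start sites outside the window kept for a gene were not searched. A member without a match here may therefore hold one elsewhere.

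**Figure D1:**
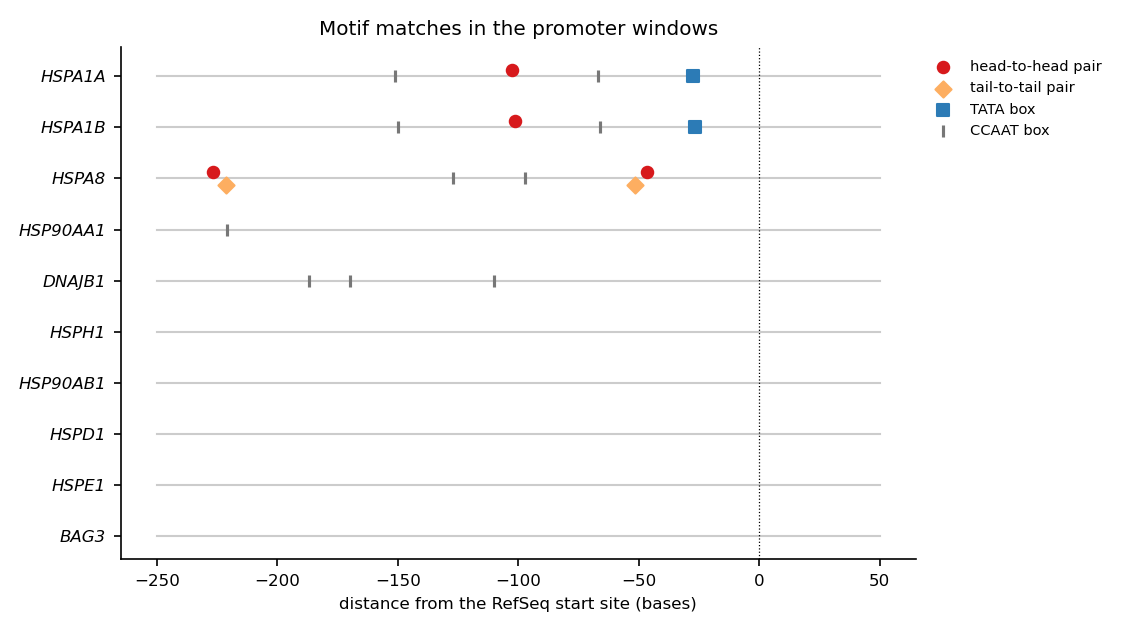
Motif matches in the promoter windows of the 10 genes, with distance from the RefSeq start site in bases on the x axis and a gene on each line; circles mark head-to-head GAA pairs, diamonds tail-to-tail pairs, squares the TATA box and ticks the CCAAT box. The single circles of HSPA1A and HSPA1B lie 1 base apart, and HSPA8 has 2 places that hold both kinds of pair.

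HSPA1A and HSPA1B, the stress-inducible HSP70 genes, fell with Senexin B to a 0.364-fold level in TNF_SnxB cells relative to TNF cells and to a 0.361-fold level in SnxB cells relative to DMSO cells. In GENCODE 29 (GRCh38) they lie at chr6:31815464-31817946 and chr6:31827735-31830255 on the plus strand. Each has a transcript of 1 exon, and HSPA1A has another of 2. The pair had 465, 425 and 413 CPM in the TNF_SnxB libraries, against 1240, 1170 and 1170 CPM in the TNF libraries. It had 422, 403 and 403 CPM in the SnxB libraries, against 1180, 1140 and 1090 CPM in the DMSO libraries. Every library with Senexin B lay below every library without it, while groups that differed only in TNF-α overlapped. In bulk libraries, fewer cells with a transcript and less of it per cell cannot be told apart.

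On the log2 scale the pair fell by 1.46 in TNF_SnxB against TNF cells (SE 0.0388, 95% interval -1.54 to -1.38, edgeR quasi-likelihood adjusted p = 1.02e-21). In SnxB against DMSO cells it fell by 1.47 (SE 0.0393, 95% interval -1.55 to -1.39, edgeR adjusted p = 1.38e-21). Ordered by unadjusted p, the pair was number 2 of the 14821 rows in TNF_SnxB against TNF and number 1 in SnxB against DMSO. Ordered by log2 fold change from the lowest up, it was number 12 in TNF_SnxB against TNF and number 6 in SnxB against DMSO. The GC content of the pair, 59.2%, puts it in decile 9 of the tested genes, on the side where TNF_SnxB replicates 2 and 3 read low. Its log2 fold change in TNF_SnxB against TNF was -1.3 after the GC and length correction (SE 0.0257) and -1.36 with TNF_SnxB replicate 1 alone (SE 0.0347), and it passed the test in both.

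The 2 genes of the pair moved alike when counted apart, although 72.6% of the 50-base words of the HSPA1A transcript occur in HSPA1B, so the split of reads between them is uncertain. HSPA1A averaged 195 ± 12.9 CPM in TNF_SnxB cells and 525 ± 12.3 CPM in TNF cells, and 177 ± 3.72 CPM in SnxB cells and 497 ± 21.6 CPM in DMSO cells (SD, n = 3 each). HSPA1B averaged 239 ± 14.2 CPM in TNF_SnxB cells and 666 ± 28.8 CPM in TNF cells, and 232 ± 7.05 CPM in SnxB cells and 638 ± 23.4 CPM in DMSO cells. In TNF_SnxB against TNF cells the log2 fold change was -1.43 for HSPA1A and -1.48 for HSPA1B, and in SnxB against DMSO cells it was -1.49 and -1.46. HSPA1A made up 42.9% to 45.2% of the pair's counts across the 12 libraries, with the 95% exact Clopper-Pearson interval of single libraries spanning 41.3% to 46.6%. HSPA1B also overlaps a longer annotated gene on its strand, AL671762.1, over 36.49% of its exon bases, which has no row of its own in the count table.

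**Figure D2:**
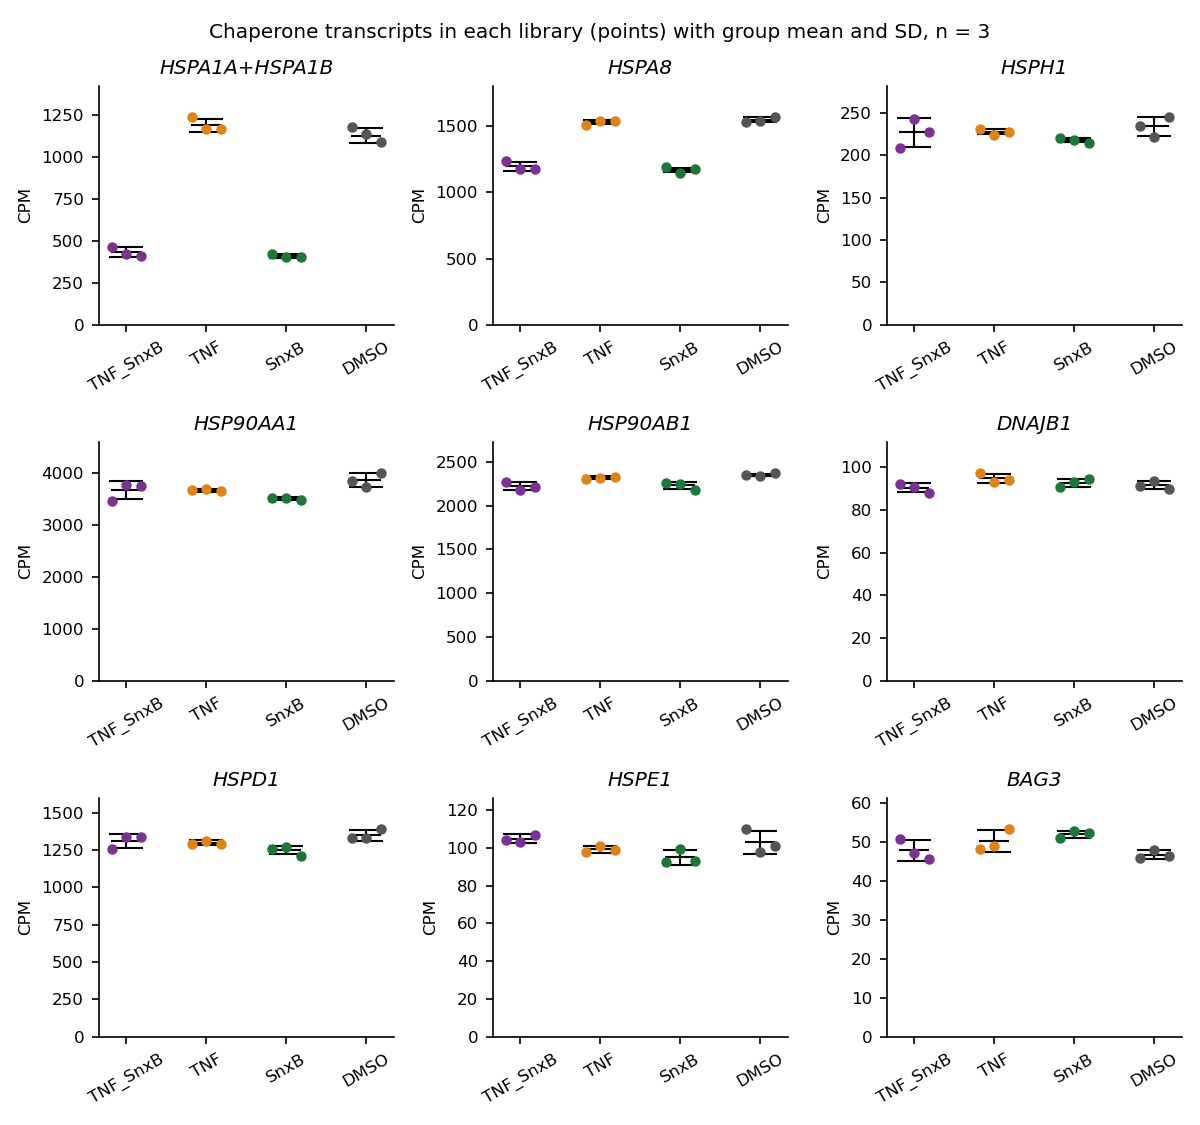
CPM of the 9 chaperone rows in each library (points), with the group mean and SD (n = 3) in black and each y axis starting at 0. HSPA1A plus HSPA1B sits at 413 to 465 CPM in TNF_SnxB libraries against 1170 to 1240 CPM in TNF libraries, and at 403 to 422 CPM in SnxB libraries against 1090 to 1180 CPM in DMSO libraries.

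HSPA8, the constitutive HSP70 that folds newly made proteins and uncoats clathrin vesicles, fell less than the inducible pair. It lies at chr11:123057489-123063230 on the minus strand, and snoRNA genes share 3.61% of its exon bases. HSPA8 had 1240, 1180 and 1180 CPM in the TNF_SnxB libraries, against 1510, 1540 and 1540 CPM in the TNF libraries. It had 1190, 1150 and 1180 CPM in the SnxB libraries, against 1530, 1540 and 1570 CPM in the DMSO libraries. The groups with and without Senexin B did not overlap. The transcript fell by 0.35 on the log2 scale in TNF_SnxB against TNF cells (SE 0.0277, edgeR adjusted p = 1.67e-10), so its level fell by 21.7%. In SnxB against DMSO cells it fell by 0.4 (SE 0.0279, edgeR adjusted p = 1.5e-11), so its level fell by 24.2%. In TNF_SnxB against TNF the log2 fold change was -0.38 after the GC and length correction and -0.31 with TNF_SnxB replicate 1 alone, and it passed the test in both. The ratio of the pair's counts to those of HSPA8 was 0.362 ± 0.0121 in TNF_SnxB and 0.779 ± 0.0346 in TNF libraries, and 0.349 ± 0.00649 in SnxB and 0.734 ± 0.0364 in DMSO libraries (SD, n = 3 each). The 17 rows named as HSPA8 pseudogenes together held at most 0.0808% of the counts of HSPA8 in any library.

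In TNF_SnxB against TNF cells the inducible pair and HSPA8 were the 2 of 9 rows that passed the test, both lower, where 27.2% of all rows passed, 13.9% lower and 13.3% higher. In SnxB against DMSO cells 4 of the 9 rows passed, all lower, where 2.02% of all rows passed, 1.68% lower and 0.344% higher. The additional rows there were HSP90AA1 and HSPD1. After the GC and length correction 5 rows passed in SnxB against DMSO, all lower, with HSPH1 added, where 4.78% of all rows passed. When only those 2 groups entered the fit 6 rows passed, all lower, with HSPH1 and HSP90AB1 added, where 740 of all rows did. DESeq2 called 3 rows there, all lower, and 266 of all rows. The median log2 fold change over the 9 rows was -0.06 in TNF_SnxB against TNF and -0.11 in SnxB against DMSO, and the median over all tested rows was 0.001 and 0.003. After the GC and length correction 4 rows passed in TNF_SnxB against TNF, where 11.9% of all rows did, and with TNF_SnxB replicate 1 alone 3 rows passed, where 2.63% of all rows did.

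**Figure D3:**
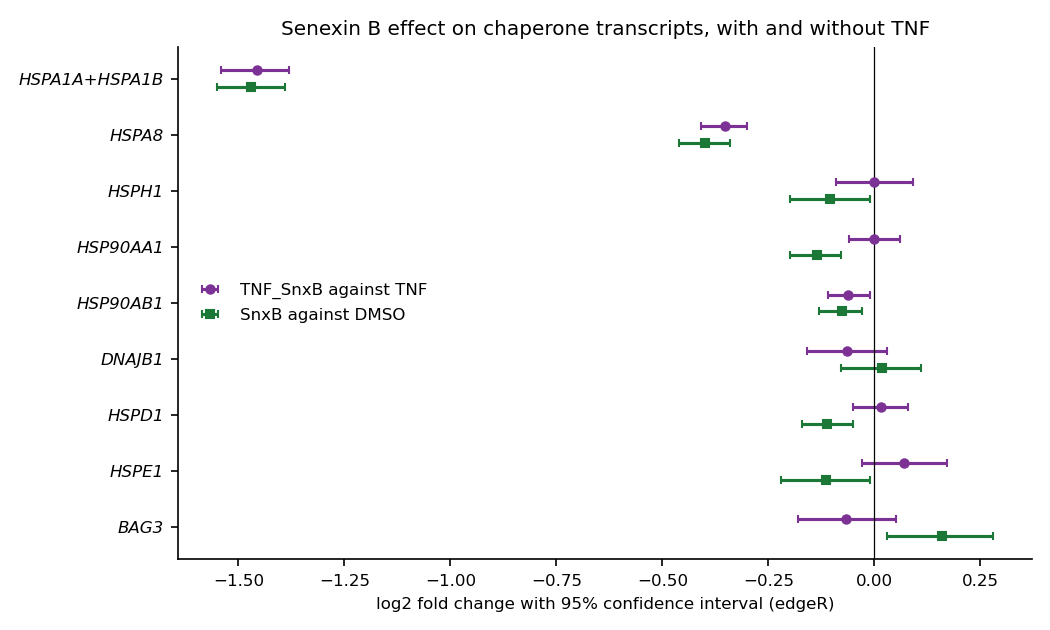
The log2 fold change with Senexin B on the x axis for each chaperone row, with the 95% confidence interval of the edgeR fit; circles are TNF_SnxB against TNF and squares SnxB against DMSO. HSPA1A plus HSPA1B lies at -1.46 and -1.47 and HSPA8 at -0.35 and -0.4, with all other rows between -0.14 and 0.16.

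HSP90AA1, the stress-responsive cytosolic HSP90, fell slightly in SnxB cells. It had 3460, 3770 and 3750 CPM in the TNF_SnxB libraries, against 3660, 3690 and 3640 CPM in the TNF libraries. It had 3520, 3510 and 3470 CPM in the SnxB libraries, against 3840, 3720 and 3990 CPM in the DMSO libraries. The SnxB libraries all lay below the DMSO libraries, while the TNF_SnxB libraries lay on both sides of the TNF libraries. The log2 fold change was 0 in TNF_SnxB against TNF (SE 0.0288, 95% interval -0.06 to 0.06, edgeR adjusted p = 0.994). In SnxB against DMSO it was -0.14 (SE 0.0289, edgeR adjusted p = 0.00598). It did not pass without DMSO replicate 3 (edgeR adjusted p = 0.0932) or without SnxB replicate 3 (edgeR adjusted p = 0.0606). The call was kept in the other 20 of 22 alternatives. After the GC and length correction the SnxB against DMSO value was -0.13 (edgeR adjusted p = 4.78e-05). With TNF_SnxB replicate 1 alone the value against TNF was -0.08 and passed (edgeR adjusted p = 0.0289), and after the GC and length correction it was -0.05 and did not pass (adjusted p = 0.119).

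HSP90AB1, the constitutive cytosolic HSP90, had 2270, 2180 and 2210 CPM in the TNF_SnxB libraries, against 2300, 2320 and 2330 CPM in the TNF libraries. It had 2260, 2250 and 2180 CPM in the SnxB libraries, against 2350, 2340 and 2370 CPM in the DMSO libraries. Neither pair of groups overlapped. The differences were small: the log2 fold change was -0.06 in TNF_SnxB against TNF (SE 0.0251, edgeR adjusted p = 0.0655) and -0.08 in SnxB against DMSO (SE 0.0252, edgeR adjusted p = 0.135), and neither passed the test. It passed in SnxB against DMSO when only those 2 groups entered the edgeR fit (adjusted p = 0.00443), but not after the GC and length correction (edgeR adjusted p = 0.0806). In TNF_SnxB against TNF it passed after the GC and length correction (edgeR adjusted p = 0.029). With TNF_SnxB replicate 1 alone the value against TNF was -0.03.

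HSPD1 and HSPE1 encode HSP60 and its lid HSP10, the chaperonin of the mitochondrial matrix, and are neighbours on chromosome 2 transcribed in opposite directions from a shared start region. HSPD1 had 1260, 1340 and 1340 CPM in the TNF_SnxB libraries, against 1290, 1310 and 1290 CPM in the TNF libraries. It had 1260, 1270 and 1210 CPM in the SnxB libraries, against 1330, 1330 and 1390 CPM in the DMSO libraries. The SnxB libraries lay below the DMSO libraries, and the TNF_SnxB and TNF libraries overlapped. Its log2 fold change was 0.02 in TNF_SnxB against TNF (SE 0.03, edgeR adjusted p = 0.73) and -0.11 in SnxB against DMSO (SE 0.0302, edgeR adjusted p = 0.0452). That call was lost in 11 of 22 alternatives, among them leaving out any 1 library of the SnxB, DMSO or TNF groups, with adjusted p-values of up to 0.312. It was kept in the other 11, and after the GC and length correction the value was -0.1 (edgeR adjusted p = 0.00184). HSPE1 had 104, 103 and 107 CPM in the TNF_SnxB libraries, against 97.9, 101 and 98.8 CPM in the TNF libraries. It had 92.6, 99.4 and 93.1 CPM in the SnxB libraries, against 110, 98.1 and 101 CPM in the DMSO libraries, and these groups overlapped. The log2 fold change of HSPE1 was 0.07 in TNF_SnxB against TNF (SE 0.0478, edgeR adjusted p = 0.297) and -0.12 in SnxB against DMSO (SE 0.0509, edgeR adjusted p = 0.346). After the GC and length correction the TNF_SnxB against TNF values were -0.05 for HSPD1 and 0.1 for HSPE1 (edgeR adjusted p = 0.124 and 0.0798). With TNF_SnxB replicate 1 alone they were -0.04 and 0.05. HSPE1 shares 23.93% of its exon bases with other annotated genes, and HSPE1-MOB4, the read-through gene on the same strand, had 0 to 4 counts per library.

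The co-chaperones DNAJB1 and BAG3 showed no difference that passed the test in either Senexin B comparison. DNAJB1, the J protein that hands clients to the inducible HSP70, had 92.3, 90.8 and 88 CPM in the TNF_SnxB libraries, against 97.2, 92.9 and 93.9 CPM in the TNF libraries. It had 90.5, 92.9 and 94.3 CPM in the SnxB libraries, against 91.4, 93.6 and 89.8 CPM in the DMSO libraries. The log2 fold change was -0.06 in TNF_SnxB against TNF (95% interval -0.16 to 0.03, edgeR adjusted p = 0.299) and 0.02 in SnxB against DMSO (95% interval -0.08 to 0.11, edgeR adjusted p = 0.951). BAG3, a nucleotide exchange factor of HSP70 that also feeds clients to autophagy, had 50.7, 47 and 45.6 CPM in the TNF_SnxB libraries, against 48.2, 48.8 and 53.2 CPM in the TNF libraries. It had 51, 52.6 and 52.3 CPM in the SnxB libraries, against 45.7, 47.9 and 46.2 CPM in the DMSO libraries. BAG3 was thus the row with all SnxB libraries above all DMSO libraries, at a log2 fold change of 0.16 that did not pass (SE 0.0608, edgeR adjusted p = 0.246). In TNF_SnxB against TNF the value was -0.07 (SE 0.056, edgeR adjusted p = 0.385). After the GC and length correction the TNF_SnxB against TNF values were 0.01 for DNAJB1 and 0.06 for BAG3 (edgeR adjusted p = 0.92 and 0.448). With TNF_SnxB replicate 1 alone they were -0.03 and 0.03.

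HSPH1, the HSP110 that exchanges nucleotide on HSP70 and helps to take aggregates apart, had 209, 243 and 228 CPM in the TNF_SnxB libraries, against 231, 224 and 228 CPM in the TNF libraries. It had 220, 218 and 215 CPM in the SnxB libraries, against 235, 222 and 245 CPM in the DMSO libraries. TNF_SnxB replicate 1 was the lowest of all 12 libraries and TNF_SnxB replicate 2 was among the highest. The log2 fold change was 0 in TNF_SnxB against TNF (SE 0.045, edgeR adjusted p = 0.991) and -0.11 in SnxB against DMSO (SE 0.0464, edgeR adjusted p = 0.342). HSPH1 has the lowest GC content of the 10 genes, 40%, in decile 2 of the tested genes, on the side where TNF_SnxB replicates 2 and 3 read high. After the GC and length correction its log2 fold change was -0.14 in TNF_SnxB against TNF (edgeR adjusted p = 0.000309) and -0.11 in SnxB against DMSO (edgeR adjusted p = 0.0244), so that it passed in both. HSPH1 also passed in SnxB against DMSO when only those 2 groups entered the edgeR fit (adjusted p = 0.0345). With TNF_SnxB replicate 1 alone the value against TNF was -0.12 and did not pass (adjusted p = 0.161).

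Whether the Senexin B effect differed with TNF-α was tested as the interaction, the log2 fold change in TNF_SnxB against TNF minus that in SnxB against DMSO. None of the 9 rows passed in the edgeR fit, where 2.5% of all rows did, 0.891% with a positive and 1.61% with a negative difference. An unadjusted edgeR p under 0.05 occurred in 4 of the 9 rows and in 3489 of all 14821 rows. DESeq2 also called 0 of the 9 rows. For the inducible pair the difference was 0.01 (SE 0.0545, 95% interval -0.1 to 0.13, edgeR adjusted p = 0.904). The GC and length correction moved it to 0.18 (SE 0.037, edgeR adjusted p = 0.0119), where 0.29% of all rows passed, which means a smaller fall with TNF-α than without. With TNF_SnxB replicate 1 alone it was 0.12 (SE 0.0418, edgeR adjusted p = 0.519), and with both changes together 0.16 (SE 0.0383, edgeR adjusted p = 0.0366). For HSPA8 the difference was 0.05 (SE 0.0392, edgeR adjusted p = 0.484). HSP90AA1, HSPD1 and HSPE1 had differences of 0.14, 0.13 and 0.18, and BAG3 one of -0.23, with edgeR adjusted p-values of 0.0609, 0.0782, 0.113 and 0.103. After the GC and length correction these were 0.08, 0.05, 0.19 and -0.1, with edgeR adjusted p-values of 0.4, 0.666, 0.136 and 0.734. With TNF_SnxB replicate 1 alone they were 0.05, 0.07, 0.16 and -0.13. Without TNF_SnxB replicate 1, which leaves the 2 libraries that stand apart, 5 of the 9 rows passed: HSPH1, HSP90AA1, HSPD1 and HSPE1 with positive and BAG3 with negative differences, while the count over all rows went up to 4534.

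**Figure D4:**
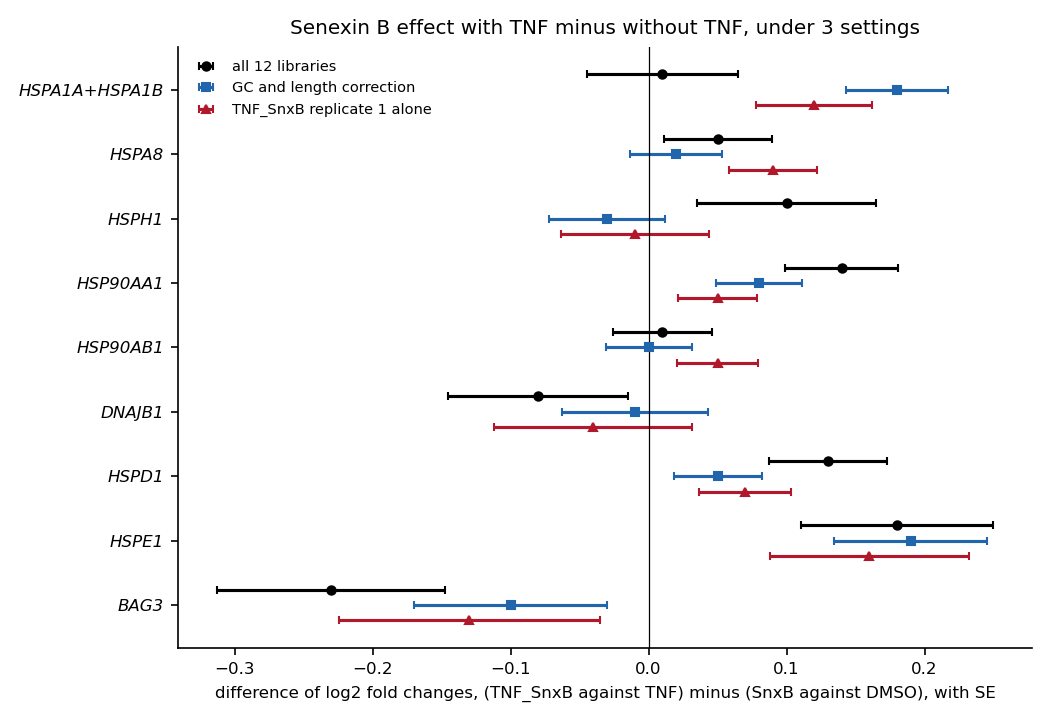
The log2 fold change in TNF_SnxB against TNF minus that in SnxB against DMSO on the x axis for each chaperone row, with its SE; circles use all 12 libraries, squares add the GC and length correction and triangles keep TNF_SnxB replicate 1 alone in its group. HSPA1A plus HSPA1B moves between 0.01, 0.18 and 0.12, and HSPH1 between 0.1, -0.03 and -0.01.

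TNF-α by itself left the members close to the DMSO level. In TNF against DMSO cells none of the 9 rows passed in the edgeR fit, where 2.02% of all rows did, 1.43% higher and 0.594% lower. An unadjusted edgeR p under 0.05 occurred in 1 of the 9 rows and in 1545 of all 14821 rows, and DESeq2 called 0 of the 9. The log2 fold changes ranged over the 9 rows between -0.07 for HSP90AA1 (95% interval -0.13 to -0.01, edgeR adjusted p = 0.33) and 0.1 for BAG3 (95% interval -0.02 to 0.21, edgeR adjusted p = 0.597). For the inducible pair the value was 0.07 (95% interval -0.01 to 0.15, edgeR adjusted p = 0.562). When only the TNF and DMSO groups entered the fit, the pair passed as higher (adjusted p = 0.0498) and HSP90AA1 as lower (adjusted p = 0.00931). In TNF_SnxB against SnxB cells none of the 9 rows passed either, where 14.2% of all rows did, 7.37% higher and 6.83% lower. An unadjusted edgeR p under 0.05 occurred in 5 of the 9 rows and in 4379 of all 14821 rows, and DESeq2 called 0 of the 9. The pair had a log2 fold change of 0.08 there (95% interval 0 to 0.16, edgeR adjusted p = 0.16). It was 0.21 and passed after the GC and length correction (edgeR adjusted p = 2.29e-07), and 0.18 and passed with TNF_SnxB replicate 1 alone (edgeR adjusted p = 0.000338). Counted apart, HSPA1A passed at 0.14 (edgeR adjusted p = 0.0399) and HSPA1B did not at 0.04 (edgeR adjusted p = 0.598). HSPE1 had 0.14 in this comparison (edgeR adjusted p = 0.0663), and it passed at 0.15 after the GC and length correction (edgeR adjusted p = 0.0232). With TNF_SnxB replicate 1 alone HSPE1 had 0.12. TNF_SnxB against SnxB shares its libraries with the comparisons above.

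Levels of different genes were set side by side as CPM per kb of annotated exon length. HSP90AB1 had the highest level on this scale in all 4 groups, at 745 ± 15.6 CPM per kb in TNF_SnxB and 778 ± 4.47 CPM per kb in TNF cells, and 749 ± 13.6 CPM per kb in SnxB and 789 ± 4.56 CPM per kb in DMSO cells (SD, n = 3 each). HSP90AA1 followed at 698 ± 33.3 CPM per kb in TNF_SnxB and 698 ± 4.6 CPM per kb in TNF cells, and 667 ± 5.09 CPM per kb in SnxB and 733 ± 25.4 CPM per kb in DMSO cells. The inducible pair took rank 5 in TNF_SnxB cells, at 174 ± 10.8 CPM per kb, and rank 3 in TNF cells, at 476 ± 16.2 CPM per kb. It likewise took rank 5 in SnxB cells, at 164 ± 4.29 CPM per kb, and rank 3 in DMSO cells, at 454 ± 17.5 CPM per kb. HSPA8 and HSPD1, its neighbours in that order, stood above it with Senexin B and below it without. Both orders rest on the division by exon length, which is 5248 bases for HSP90AA1, 2980 for HSP90AB1, 4849 for HSPA8, 4245 for HSPD1 and 2483 for HSPA1A. In undivided counts HSP90AA1 had 1.52 to 1.73 times the counts of HSP90AB1 in the 12 libraries, and in CPM the means of HSPA8 and HSPD1 lay above that of the pair in all 4 groups. HSPE1 came next at 48.1 to 52.9 CPM per kb in the group means, followed by HSPH1 at 25.9 to 27.9, DNAJB1 at 24.6 to 25.8 and BAG3 at 17 to 18.9 CPM per kb. The ranges of neighbours in this order overlapped between HSPH1 and DNAJB1 in TNF_SnxB and in SnxB cells and between HSPA8 and HSPD1 in DMSO cells, and no other neighbours overlapped. The 10 genes together took 0.937% ± 0.0187 of counts in TNF_SnxB and 1.04% ± 0.00345 in TNF libraries, and 0.911% ± 0.00978 in SnxB and 1.06% ± 0.0171 in DMSO libraries (SD, n = 3 each).

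**Figure D5:**
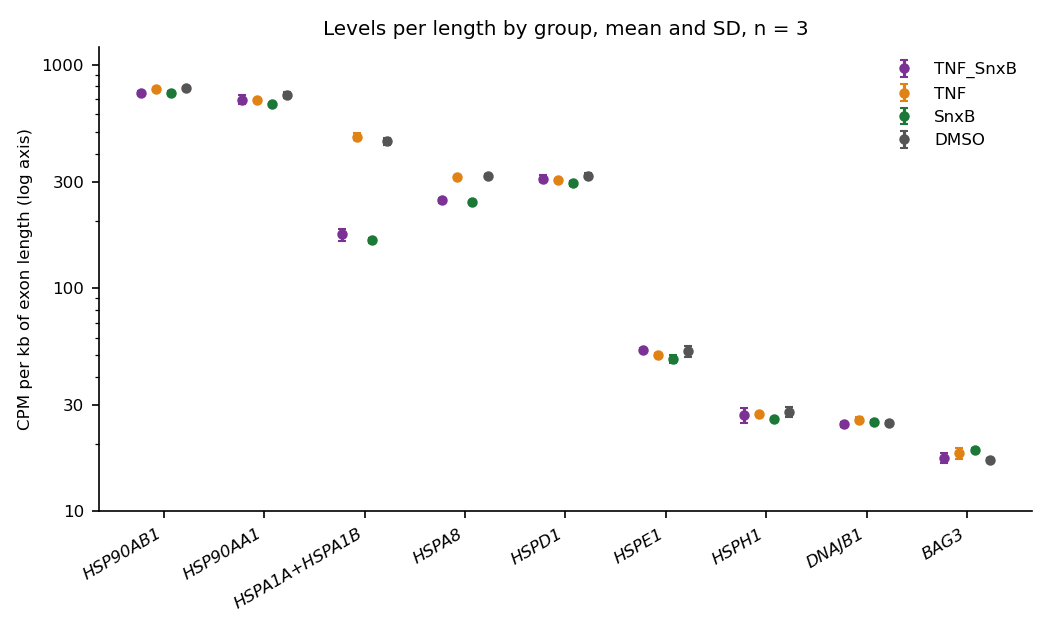
Mean CPM per kb of exon length with SD (n = 3) on a log axis for the 9 chaperone rows, ordered by their level in DMSO cells, with the 4 groups side by side. HSPA1A plus HSPA1B sits at 174 CPM per kb in TNF_SnxB against 476 in TNF cells and at 164 in SnxB against 454 in DMSO cells, a wider gap than in any other row.

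Of 104 other genes of the heat shock and chaperone network in 9 lists, 94 were tested. In SnxB against DMSO cells 3 of these 94 passed, all lower, against 2.02% of all rows. It was 13, all lower, after the GC and length correction, where 4.78% of all rows passed, and 14, all lower, without TNF_SnxB replicates 2 and 3, where 5.65% passed. DESeq2 called 2, DNAJA1 and HSPA2, both lower, and gave HSPA1L no adjusted p. DNAJA1, a cytosolic J protein, averaged 360 ± 10.4 CPM in SnxB and 414 ± 4.29 CPM in DMSO cells (SD, n = 3 each; log2 fold change -0.2, edgeR adjusted p = 0.000287). HSPA2, an HSP70 best known from the testis, averaged 54.5 ± 2.68 CPM in SnxB and 65.5 ± 3.62 CPM in DMSO cells (log2 fold change -0.26, edgeR adjusted p = 0.02). Its call was lost in 4 of 22 alternatives, those without DMSO replicate 1 or 2 or SnxB replicate 1 or 2, with an edgeR adjusted p of up to 0.184. HSPA1L, which lies beside HSPA1A, averaged 1.12 ± 0.162 CPM in SnxB and 2.46 ± 0.15 CPM in DMSO cells (log2 fold change -1.14, edgeR adjusted p = 0.0366). Its call was lost in 8 of 21 alternatives, those without any 1 of the SnxB or DMSO libraries and those without TNF replicate 2 or 3, with an edgeR adjusted p of up to 0.22. Of the 50-base words of HSPA1A, 2.5% occur in HSPA1L, so reads of the pair may be counted there. The first of these was the 1 of 18 tested J proteins that passed, and the other two were the 2 of 10 tested further HSP70 and HSP110 genes. In the edgeR fit of all libraries none passed among the 5 tested heat shock factors and regulators, the 17 tested HSP90 co-chaperones, the 9 nucleotide exchange factors, the 4 small heat shock proteins, the 14 CCT and prefoldin subunits, the 8 mitochondrial and the 9 endoplasmic reticulum chaperones. In these lists 0, 3, 1, 1, 2, 0 and 1 genes had an unadjusted edgeR p under 0.05, against 1788 of all 14821 rows. After the GC and length correction 0, 3, 1, 1, 1, 0 and 1 genes of these lists passed, and without TNF_SnxB replicates 2 and 3 the counts were 0, 3, 1, 1, 2, 0 and 1, and all of these genes were lower in both settings. PTGES3, the HSP90 co-chaperone p23, had a log2 fold change of -0.15 in the edgeR fit of all libraries (adjusted p = 0.0654) and -0.14 after the correction (adjusted p = 0.000289). HSPB1, the small heat shock protein HSP27, had -0.2 (edgeR adjusted p = 0.0918), and -0.21 after the correction (adjusted p = 0.000442). The median log2 fold change over the 94 genes was -0.04, against 0.003 over all rows.

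HSF1, the main heat shock factor, averaged 80.5 ± 3.1 CPM in SnxB and 79.2 ± 3.87 CPM in DMSO cells, a log2 fold change of 0.03 (SE 0.0652, edgeR adjusted p = 0.944). HSF2, another heat shock factor, averaged 53.7 ± 4.84 CPM in SnxB and 51.8 ± 2.5 CPM in DMSO cells, a log2 fold change of 0.05 (SE 0.0712, edgeR adjusted p = 0.851). In TNF_SnxB against TNF cells HSF1 passed as lower at -0.2 (edgeR adjusted p = 0.015) and HSF2 as higher at 0.18 (edgeR adjusted p = 0.0407). After the GC and length correction these were 0.04 and 0.05, and with TNF_SnxB replicate 1 alone 0.02 for both, and none of the 4 values passed. HSPA6, a strictly inducible HSP70, had 38 counts over all 12 libraries and was not tested.

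In TNF_SnxB against TNF cells 37 of the 94 network genes passed, 13 higher and 24 lower, where 27.2% of all rows passed. After the GC and length correction 23 passed, 6 higher and 17 lower, where 11.9% of all rows passed. With TNF_SnxB replicate 1 alone 1 passed, lower, where 2.63% of all rows passed. That gene was GRPEL1, a nucleotide exchange factor of mitochondrial HSP70, with a log2 fold change of -0.17 in the edgeR fit of all libraries (adjusted p = 0.0076), -0.21 after the correction (adjusted p = 2.43e-05) and -0.24 with TNF_SnxB replicate 1 alone (adjusted p = 0.00929). DNAJA1 had a log2 fold change of -0.1 (edgeR adjusted p = 0.0314), and it was -0.2 after the correction (adjusted p = 1.71e-07) and -0.11 with TNF_SnxB replicate 1 alone (adjusted p = 0.089). HSPA2 had -0.21 (edgeR adjusted p = 0.00752), and -0.28 and -0.08 under those settings. FKBP4, an immunophilin partner of HSP90, had -0.17 (edgeR adjusted p = 0.00123), and -0.13 and -0.07 under those settings. CDC37, which brings kinases to HSP90, had -0.24 (edgeR adjusted p = 0.00108), and -0.07 in the first and -0.05 in the second setting, neither of which passed. HSPA13, a microsomal HSP70, passed as higher at 0.37 (edgeR adjusted p = 0.000119), with 0.16 and 0.13 under those settings. SDF2L1 passed as lower at -0.38 (edgeR adjusted p = 7.62e-05), and DNAJB14 and DNAJB4 as higher at 0.44 and 0.45 (edgeR adjusted p = 0.000163 and 0.00127). HSPA1L passed as lower at -1.51 (edgeR adjusted p = 7.62e-05), with 7 to 17 counts per TNF_SnxB library. Over the alternatives HSPA1L ranged between -1.95 and -0.71, and its call was lost in 2 of 21. The calls of SDF2L1, DNAJB14 and DNAJB4 were lost in 4, 2 and 4 of 22. Their values ranged between -0.45 and -0.09, 0.16 and 0.55, and 0.19 and 0.49 in that order. Most of these 22 fits used TNF_SnxB replicates 2 and 3 uncorrected, so the number of lost calls says little about the GC trend. None of the 94 passed in TNF against DMSO cells, in edgeR or in DESeq2. An unadjusted edgeR p under 0.05 occurred there in 3 of the 94 and in 1545 of all 14821 rows. In that comparison 1 passed, higher, after the correction, where 3.85% of all rows passed, and 2 passed, both lower, without TNF_SnxB replicates 2 and 3, where 5.61% passed. In TNF_SnxB against SnxB cells 20 passed, 14 higher and 6 lower, where 14.2% of all rows passed. After the correction 6 passed, 4 higher and 2 lower, where 4.97% of all rows passed, and with TNF_SnxB replicate 1 alone 1 passed, higher, where 1.43% passed.

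Likeness to the inducible pair was measured as the root mean square difference of log2 CPM, each gene centred on its own mean, over the 12 libraries and 14120 genes. The 5 most alike genes were IRS4 at 0.0777, FAM84A at 0.125, ADAMTS1 at 0.134, RP6-24A23.7 at 0.172 and JUN at 0.172, whereas HSPA8 stood at 0.547 and the other members between 0.7 and 0.76. IRS4, an adaptor of insulin and growth factor receptors, averaged 173 ± 3.83 CPM in TNF_SnxB and 448 ± 3.04 CPM in TNF cells, and 159 ± 2.07 CPM in SnxB and 404 ± 2.16 CPM in DMSO cells (SD, n = 3 each). JUN, a subunit of the transcription factor AP-1, averaged 130 ± 8.61 CPM in TNF_SnxB and 401 ± 13.5 CPM in TNF cells, and 116 ± 3.57 CPM in SnxB and 276 ± 12.2 CPM in DMSO cells. ADAMTS1, a secreted metalloprotease, averaged 100 ± 7.63 CPM in TNF_SnxB and 247 ± 5.38 CPM in TNF cells, and 106 ± 3.29 CPM in SnxB and 286 ± 7.91 CPM in DMSO cells. These levels follow from how the genes were chosen and are given as a description.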

How the data were processed

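The 10 members and the 9 gene lists were chosen with earlier results of these data known. Per the labels' protocols, total RNA was made into libraries with the Illumina TruSeq RNA kit. Per the submitters' processing notes, STAR 2.4, SAMtools 1.2 and featureCounts of Subread 1.4.6 were used with hg38; the annotation, strand setting and handling of reads that map to several places are not given in sources used here, so overlapping genes and near-identical copies are uncertain. The deposited table holds raw counts per gene, not normalized by the authors.

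Counts were tested with edgeR 4.0.16 (limma 3.58.1, R 4.3.3): HSPA1A and HSPA1B replaced by their sum, filterByExpr, TMM scaling, quasi-likelihood F test on group means of all 12 libraries (biological coefficient of variation 3.49%), and Benjamini-Hochberg adjustment over all 14821 rows with a threshold of 0.05. The SE is the log2 fold change over the square root of F. Comparisons were TNF_SnxB against TNF, SnxB against DMSO, TNF against DMSO, TNF_SnxB against SnxB and the interaction. GC content and length came from GENCODE 29 exons (13463 tested rows matched by symbol, 90.8%), and the correction used loess offsets of span 0.3. Log2 CPM for likeness had a prior count of 2 and genes needed a mean of 1 CPM. Named network genes were HSF1, HSF2, up to 3 genes per list with the smallest adjusted p in either Senexin B comparison, and the 5 most alike genes. DESeq2 1.42.0 and the other alternatives are in the closing section. The test was tried on simulated data first. Per-library depth ran over 8705277 to 50943310 counts, and intervals of single libraries cover counting error only.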

Additional observations from a re-analysis of the deposited data

Results flagged for a closer look

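The difference between the Senexin B effect with TNF-α and without it passed the edgeR test for 7 of the named genes that are not members, and for none of the 9 chaperone rows. Most named genes were chosen by their adjusted p in a Senexin B comparison or by likeness to the pair. These values share libraries with the difference, so the 7 are a description. Of all 94 tested network genes 6 passed, 3 with positive and 3 with negative differences, where 2.5% of all rows passed. JUN had a log2 difference of -0.38, which was -0.26 after the GC and length correction and -0.27 with TNF_SnxB replicate 1 alone, and it passed in all 3. Its call was lost in 5 of 21 alternatives, with an edgeR adjusted p of up to 0.0749. These were the fits without DMSO replicate 3, SnxB replicate 2, SnxB replicate 3, TNF replicate 1 or TNF_SnxB replicate 3. HSPA13, a microsomal HSP70, had 0.34, against 0.13 after the correction and 0.1 with TNF_SnxB replicate 1 alone. PTGES3, the HSP90 co-chaperone p23, had 0.22, against 0.12 and 0.06 under those settings. FKBP8, an immunophilin, had -0.3, against -0.01 and -0.09. HSPBP1, an HSP70 nucleotide exchange factor, had -0.3, against -0.04 and -0.18. PFDN4, a prefoldin subunit, had 0.33, against 0.12 and 0.22. SDF2L1, an endoplasmic reticulum protein, had -0.41, against -0.09 and -0.22. None of these 6 passed in either setting.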

How the results depend on the processing

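The fall of the inducible pair and of HSPA8 kept its direction and its call in both Senexin B comparisons under every alternative run. The pair ranged between -1.5 and -1.3 on the log2 scale in TNF_SnxB against TNF and between -1.5 and -1.45 in SnxB against DMSO. For the other members 48 of 872 alternative values changed their side of the threshold, and 42 changed sign with neither value called. Depth limits the members little, since each had at least 436 counts in every library.

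The alternatives were median-of-ratios scaling, DESeq2, fits of only the groups compared, no low-count filter, TNF replicate 2 thinned, a replicate block, the GC and length correction, the pair counted apart and the omission of libraries. Leaving out libraries of groups not compared, and the GC and length correction together with leaving out TNF_SnxB replicates 2 and 3, were chosen after seeing the data. The cause of the changes below was not tested. With the GC and length correction, the genes called were 1763 in TNF_SnxB against TNF, 709 in SnxB against DMSO, 570 in TNF against DMSO, 737 in TNF_SnxB against SnxB and 43 in the interaction. In the same order and with a replicate block added they were 1782, 732, 575, 764 and 72. Without TNF_SnxB replicates 2 and 3 they were 402, 863, 857, 219 and 19, and with the correction as well 437, 938, 736, 243 and 21. With only the groups compared they were 2440, 740, 776 and 504. The interaction called 711 genes with no low-count filter.

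The members called in TNF_SnxB against TNF were 4 with the correction, with or without the block, and 4 with the correction and without replicates 2 and 3. In TNF against DMSO they were 2 with only the groups compared, 2 without TNF_SnxB replicates 2 and 3, and 1 with the correction as well. In TNF_SnxB against SnxB they were 2 with the correction, with or without the block, 1 without TNF_SnxB replicates 2 and 3, with or without the correction, and 1 with the pair kept apart. In the interaction 1 member was called with the correction, with or without the block, and with the correction and without replicates 2 and 3.

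The pair in TNF against DMSO passed at 0.0684 without TNF_SnxB replicates 2 and 3 and at 0.0686 with only the groups compared. In TNF_SnxB against SnxB it passed at 0.2081 with the correction, 0.2091 with the block and correction, 0.1841 without TNF_SnxB replicates 2 and 3, 0.1928 with that and the correction, and 0.1378 as HSPA1A alone. In the interaction it passed at 0.177 with the correction, 0.1772 with the block as well, and 0.1625 with the correction and without TNF_SnxB replicates 2 and 3.

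Leaving out 1 library at a time, the genes called ranged between 1868 and 6769 in TNF_SnxB against TNF, 171 and 877 in SnxB against DMSO, 177 and 874 in TNF against DMSO, 509 and 5390 in TNF_SnxB against SnxB, and 3 and 4534 in the interaction. The highest count of each came without TNF_SnxB replicate 1. The members called ranged between 2 and 3, 2 and 6, 0 and 2, 0 and 5, and 0 and 5 in that order of comparisons. The pair ranged between -1.5027 and -1.4224, -1.5 and -1.4454, 0.0416 and 0.0962, 0.0372 and 0.1192, and -0.0302 and 0.0495.

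The correlation of deviations between same-numbered libraries ran from -0.04 to 0.094. Of 18 such pairs 0 exceeded 0.1, and 3 of 12 libraries correlated best with their own number. Replicates of SnxB and of TNF differed by little more than counting error, which keeps such correlations low with or without pairing. These correlations therefore cannot decide whether replicate numbers pair the samples. The replicate block called 736 genes in the interaction against 370 without it, and it changed no count of members by itself.

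Among named network genes, values in TNF_SnxB against TNF that changed sign, with the main or the alternative value called, were as follows. Changes of sign with neither value called are left out. With the correction they were 0.0383 for HSF1, -0.066 for HSPA9, 0.0067 for FKBP8, 0.0061 for HSPBP1, 0.114 for LONP1, 0.0348 for CLPP and -0.0166 for CANX, and with the block as well 0.0396, -0.0667, 0.001, 0.0026, 0.1104, 0.0468 and -0.0168. Without TNF_SnxB replicates 2 and 3 they were 0.0183 for HSF1, -0.0234 for VBP1 and -0.0068 for YME1L1. With that and the correction they were 0.0814 for HSF1, -0.0082 for HSBP1, -0.0049 for DNAJC10, -0.098 for PTGES3, 0.0391 for FKBP8, -0.0277 for VBP1, 0.1487 for LONP1, -0.0328 for YME1L1, -0.0022 for CANX and 0.0013 for CRELD2, and the interaction of FKBP8 was 0.0252.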
